A study of Mus musculus with 8 samples.

Results

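The carboxylesterase genes of families 1 to 3 were followed in the livers of mice with diet-induced steatohepatitis. The 10 genes were taken by symbol: Ces1b, Ces1c, Ces1d, Ces1e, Ces1f and Ces1g of family 1, Ces2a, Ces2c and Ces2e of family 2, and Ces3a of family 3. Each symbol matched 1 Ensembl gene of the GRCm38 annotation, so that 10 of the 52636 genes in the count tables were members, and all 10 passed the filter on low counts. The GRCm38 annotation holds 20 carboxylesterase genes in all, and the other 10 are described further on for comparison.

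The mice were 8 male C57BL/6J animals, with 1 liver RNA library each. At 7 weeks of age, 4 mice (303, 311, 314 and 315) were injected with AAV8-TBG-GFP and 4 (308, 309, 316 and 319) with AAV8-TBG-AGXT. AAV8 is an adeno-associated virus used to bring genes into the liver, TBG is a promoter active in hepatocytes, GFP is a fluorescent protein that served as control, and AGXT is the human alanine-glyoxylate aminotransferase, which turns glyoxylate into glycine. From 8 weeks of age both groups ate the MASH diet, rich in fat, fructose and cholesterol, for 24 weeks, so the control mice carried a virus and the disease diet too. The comparison asks how hepatocyte expression of AGXT during MASH went with the RNA levels of these enzymes, and the AGXT transgene itself was not analysed here. Because the RNA came from whole liver, fewer cells of a type and less RNA per cell cannot be told apart.

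Carboxylesterases are serine hydrolases that cleave ester bonds in drugs, other foreign compounds and lipids. Most of them sit in the lumen of the endoplasmic reticulum of hepatocytes, held there by a retrieval signal at the end of the protein, and those without it can leave the cell. In the liver the family is known for turning over stored triacylglycerol, for feeding lipid into very-low-density lipoprotein (VLDL), and for activating or clearing ester drugs. The mouse has many more copies of these genes than the human, lying in tandem.

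All 10 genes are on chromosome 8. In GRCm38 the Ces1 genes formed 1 cluster of 8 genes on the minus strand, from 93020214 to 93379725 (359.5 kb). The Ces2, Ces3 and Ces4 genes formed a cluster of 11 genes on the plus strand, from 104734003 to 105150109 (416.1 kb). The clusters lie 11.35 Mb apart, with Ces5a between them. The members differ in the 3′ ends of their coding sequences, which hold the codons of the retrieval signal where there is one. The last 51 coding bases, stop codon included, are shown for 6 members that the results turn on or that differ in this end. Capitals mark the last 4 codons before the stop.
Ces1d (GRCm38, chr8:93166255-93166305, minus strand): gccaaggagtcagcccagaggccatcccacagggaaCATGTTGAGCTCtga
Ces1e (GRCm38, chr8:93201404-93201454, minus strand): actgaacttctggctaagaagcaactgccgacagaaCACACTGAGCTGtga
Ces1c (GRCm38, chr8:93099165-93099215, minus strand): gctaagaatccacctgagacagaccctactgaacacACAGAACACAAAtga
Ces1b (GRCm38, chr8:93056887-93056937, minus strand): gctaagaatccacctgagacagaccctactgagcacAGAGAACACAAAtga
Ces2c (GRCm38, chr8:104854214-104854264, plus strand): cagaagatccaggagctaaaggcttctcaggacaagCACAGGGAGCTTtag
Ces3a (GRCm38, chr8:105058053-105058103, plus strand): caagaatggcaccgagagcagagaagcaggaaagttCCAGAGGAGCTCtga
The retrieval signal was read from these codons as CAT or CAC, any codon, GAA or GAG, and a leucine codon. It was present in Ces1d, Ces1e, Ces1f, Ces1g, Ces2a, Ces2c and Ces2e. These codons were absent from Ces1b, Ces1c and Ces3a, and where the proteins are was not measured. Ces1c encodes the carboxylesterase that is abundant in mouse plasma.

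The members are close copies of each other, which bears on how reads could be assigned to them. Aligned coding sequences within family 1 were 72.1 to 90.8% identical (15 pairs, median 77.3%), with Ces1b and Ces1c the closest pair. The 3 pairs within family 2 were 82.5 to 83.8% identical, and the 27 pairs between families were 52.0 to 55.4% identical. The count tables hold a separate tally of pairs aligned at several places, 17.4 to 23.4% of all tallied pairs per mouse, although the setting used for such pairs is not given. Where they are kept off the genes, a stretch of identical sequence can lower a gene's count. Of all 67-base windows of the longest coding transcript, the share found also in a transcript of another gene was 30.8% for Ces2c, 22.1% for Ces3a and 16.6% for Ces2a. For Ces2c most of it was shared with the pseudogene Ces2d-ps (28.9% of its windows), for Ces3a all of it with Ces3b, and for Ces2a nearly all of it with the pseudogene Gm7208 (16.5%). Ces1c shared 9.42% and Ces1b 5.74%, mainly with each other. The share was 1.54% for Ces1e, 0.91% for Ces2e, 0.34% for Ces1g, 0.16% for Ces1f and 0 for Ces1d. Exons of Ces3a also overlap Gm45724 on the opposite strand, which held 23 to 70 counts per mouse.

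**Figure D1:**
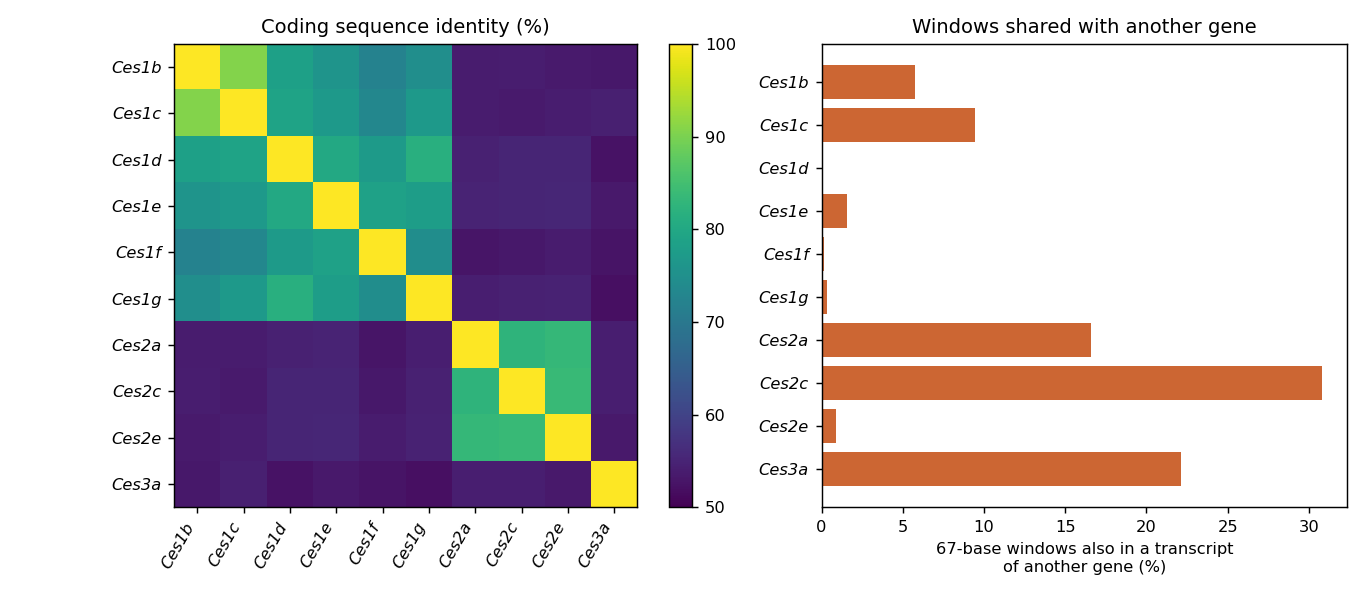
Left, percent identity of the aligned coding sequences for each pair of the 10 members (colour scale from 50 to 100%). Right, for each member, the percent of 67-base windows of its longest coding transcript that occur also in a transcript of another gene. The Ces1 genes form 1 block and the Ces2 genes another, Ces1b and Ces1c are the closest pair at 90.8%, and the shared windows run from 0 for Ces1d to 30.8% for Ces2c.

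The depth per mouse was 17095433 to 28780140 pairs assigned to a gene. Mouse 308 of the AAV8-AGXT group had the smallest share of its tallied pairs on genes, 56.3%, where the other 7 mice had 62.4 to 69.1%. It also had the smallest scaling factor (0.83). The factors of AAV8-GFP mice 303, 311, 314 and 315 were 1.09, 1.14, 1.10 and 1.02. Those of AAV8-AGXT mice 308, 309, 316 and 319 were 0.83, 0.97, 1.00 and 0.89, each below every AAV8-GFP factor. A smaller factor gives a higher CPM for every gene of that mouse. Defining hepatocyte genes were abundant in every mouse, and the 5 of 6 hepatocyte markers found in the tables summed to 44660 to 54600 CPM (counts scaled to a common library size) in AAV8-GFP mice and 52830 to 74920 CPM in AAV8-AGXT mice. Over 15248 genes tested, 374 were higher and 290 lower in AAV8-AGXT mice at an edgeR adjusted p under 0.05.

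Mean levels of all 10 members were higher in AAV8-AGXT than in AAV8-GFP livers, by 1.10-fold for Ces1g to 2.25-fold for Ces2c, although Ces1g turned to a log2 fold change of -0.09 when counts were scaled by their totals alone. In edgeR's quasi-likelihood test with adjustment over all 15248 genes, 2 of 10 members passed the threshold, Ces1d and Ces2c, both higher, beside 4.35% of all tested genes in either direction, 2.45% higher and 1.9% lower. The 4 mice of each group did not overlap for 4 of 10 members (Ces1b, Ces1d, Ces2c and Ces3a), beside 16.6% of all tested genes in either direction, 8.93% higher and 7.63% lower. This holds for CPM with the scaling factors, which the permutation tests below also use. With CPM computed from total counts alone, AAV8-GFP mouse 315 lay above AAV8-AGXT mouse 309 for Ces1b. For Ces3a, mouse 315 lay above AAV8-AGXT mice 316 and 319, and AAV8-GFP mouse 311 lay above mouse 319. At an unadjusted edgeR p under 0.05 there were 6 members, beside 26.2% of all tested genes. The median log2 fold change was 0.54 over the members and 0.02 over all tested genes. DESeq2, the tool of the study, passed 5 members (Ces1b, Ces1d, Ces2a, Ces2c and Ces3a), beside 12.9% of the genes it tested, and limma-voom passed 3 (Ces1b, Ces1d and Ces2c), beside 4.47%. The DESeq2 run here gave 1068 genes higher and 1033 lower. The study reports fewer genes in each direction, and mostly lower ones, and its own calls on the members were not compared.

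**Figure D2:**
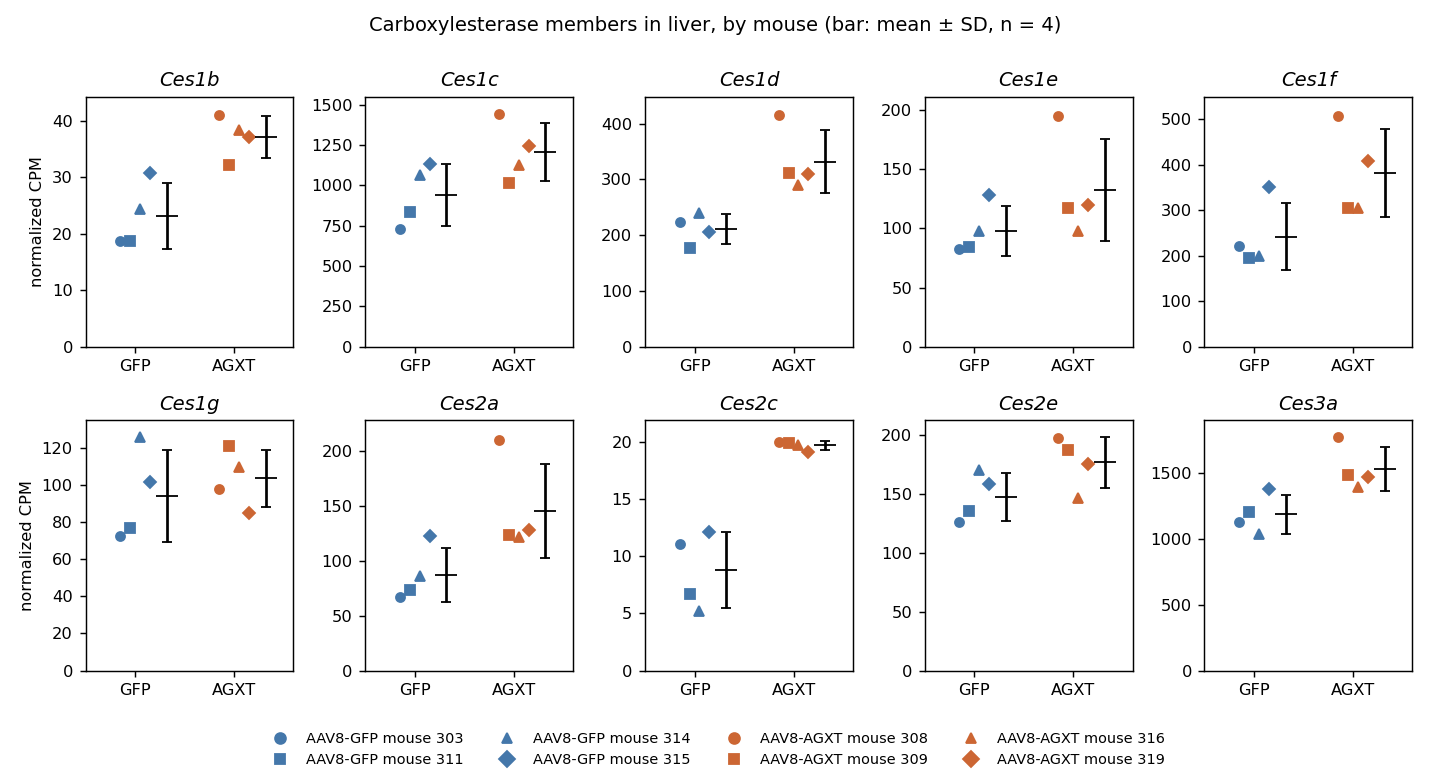
Level of each member in each of the 8 mice, in CPM scaled by edgeR's TMM factors (vertical axes from 0, different for each gene). Symbols are single mice, horizontal bars the group means and error bars the SD (n = 4). The groups are apart for Ces1b, Ces1d, Ces2c and Ces3a, Ces2c of the AAV8-AGXT mice lies between 19.1 and 20.02 CPM, and mouse 308 is the highest AAV8-AGXT mouse for every member but Ces1g.

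Ces1d, also known as triacylglycerol hydrolase, releases fatty acids from stored triacylglycerol and takes part in VLDL assembly. The gene (ENSMUSG00000056973) lies at chr8:93166068-93197838. Its levels were 223, 177, 239 and 205 CPM in AAV8-GFP mice 303, 311, 314 and 315, and 415, 312, 290 and 310 CPM in AAV8-AGXT mice 308, 309, 316 and 319. Every AAV8-AGXT mouse was above every AAV8-GFP mouse, and mouse 308 stood highest. The means were 211 ± 26.4 and 332 ± 56.5 CPM (SD, n = 4 each). Ces1d rose 1.57-fold, a log2 fold change of 0.65 (SE 0.15, 95% interval 0.32 to 0.99), with an edgeR adjusted p of 0.0451. The exact two-sided permutation test over the 70 arrangements of the mice gave p = 0.0286, the smallest value it can give. The call was close to the threshold. It was lost in each of the 8 fits that left out 1 mouse, where the log2 fold change lay between 0.51 (without mouse 308) and 0.71 (without mouse 316) and the adjusted p between 0.0516 and 0.151, and under upper-quartile scaling (adjusted p = 0.053) and total-count scaling (0.0681).

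Ces2c belongs to the family whose members hydrolyse drug esters and acylglycerols. The gene (ENSMUSG00000061825) lies at chr8:104847068-104854483. It was the lowest of the members, with counts of 113 to 405 per mouse. Its levels were 11.1, 6.67, 5.21 and 12.1 CPM in AAV8-GFP mice 303, 311, 314 and 315, and 20.02, 19.9, 19.8 and 19.1 CPM in AAV8-AGXT mice 308, 309, 316 and 319. The AAV8-AGXT mice lay close together, the AAV8-GFP mice were spread out below them, and the groups did not overlap. Counts of the AAV8-AGXT mice were 290, 331, 385 and 405 in the same order. These mice lay further apart when CPM were computed from total counts without the scaling factors. The means were 8.77 ± 3.34 and 19.7 ± 0.404 CPM (SD, n = 4 each). Ces2c rose 2.25-fold, a log2 fold change of 1.17 (SE 0.24, 95% interval 0.63 to 1.71), with an edgeR adjusted p of 0.0366 and an exact permutation p of 0.0286. It passed the threshold in each of the 8 other tools, scalings and filters (adjusted p 0.000368 to 0.0459). With 1 mouse left out it passed only without mouse 315 (adjusted p = 0.033). Without each of the other 7 the adjusted p was 0.0505 to 0.138, and the log2 fold change over all 8 such fits was 0.97 to 1.36. Its nearest copy, Ces2d-ps, had 0 to 2 counts in AAV8-GFP mice and 2 to 32 in AAV8-AGXT mice and was too low to be tested. How far the shared windows affect either count was not tested.

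Ces1b and Ces3a had groups that did not overlap in CPM with the scaling factors, but both missed the threshold. Ces1b (ENSMUSG00000078964, chr8:93056728-93080017), whose coding sequence is the closest to that of Ces1c, was at 18.6, 18.6, 24.4 and 30.7 CPM in AAV8-GFP mice 303, 311, 314 and 315 and at 40.9, 32.1, 38.3 and 37.1 CPM in AAV8-AGXT mice 308, 309, 316 and 319. The highest AAV8-GFP mouse, 315, lay just under the lowest AAV8-AGXT mouse, 309. The log2 fold change was 0.69 (SE 0.17, 95% interval 0.31 to 1.06), with an edgeR adjusted p of 0.0516 and an exact permutation p of 0.0286. Ces1b passed in 4 of the 8 other tools, scalings and filters (adjusted p 0.0065 to 0.0839) and, with 1 mouse left out, only without mouse 315 (adjusted p = 0.0322).

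Ces3a (ENSMUSG00000069922, chr8:105048601-105058413), the only member of family 3, was at 1125, 1203, 1035 and 1379 CPM in AAV8-GFP mice 303, 311, 314 and 315 and at 1773, 1487, 1395 and 1472 CPM in AAV8-AGXT mice 308, 309, 316 and 319. AAV8-GFP mouse 315 was the nearest to the other group, just under AAV8-AGXT mouse 316. The log2 fold change was 0.37 (SE 0.14, 95% interval 0.05 to 0.69), with an edgeR adjusted p of 0.141 and an exact permutation p of 0.0286. DESeq2 alone among the tools, scalings and filters put it past the threshold, at an adjusted p of 0.0434.

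Ces1f and Ces2a had log2 fold changes of the same size as Ces1d but more spread between mice. Ces1f (ENSMUSG00000031725, chr8:93256236-93279747), an esterase of the liver microsomes, was at 221, 196, 199 and 352 CPM in AAV8-GFP mice 303, 311, 314 and 315 and at 506, 305, 304 and 409 CPM in AAV8-AGXT mice 308, 309, 316 and 319. Mouse 315 stood apart from the other AAV8-GFP mice and overlapped the AAV8-AGXT group. The log2 fold change was 0.66 (SE 0.23, 95% interval 0.13 to 1.18), with an edgeR adjusted p of 0.117 and an exact permutation p of 0.0857. Without mouse 315 it was 0.90 and passed, at an adjusted p of 0.0471.

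Ces2a (ENSMUSG00000055730, chr8:104734003-104741634), a hydrolase of acylglycerols, was at 67.5, 73.2, 86.0 and 123 CPM in AAV8-GFP mice 303, 311, 314 and 315 and at 210, 123, 122 and 128 CPM in AAV8-AGXT mice 308, 309, 316 and 319. Mouse 315 again reached the range of the AAV8-AGXT mice, and mouse 308 stood well above the rest of its own group. The log2 fold change was 0.74 (SE 0.23, 95% interval 0.22 to 1.26), with an edgeR adjusted p of 0.0862 and an exact permutation p of 0.0571. It was 0.50 without mouse 308, and 0.95 without mouse 315, where it passed (adjusted p = 0.0471).

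The groups overlapped for the other 4 members, and their edgeR adjusted p lay between 0.234 and 0.681. Ces1c (ENSMUSG00000057400, chr8:93099015-93131283), the plasma carboxylesterase, ranged from 727 to 1131 CPM in AAV8-GFP mice and from 1016 to 1440 CPM in AAV8-AGXT mice, and its log2 fold change was 0.36 (95% interval -0.04 to 0.76). Ces1e (ENSMUSG00000061959, chr8:93201218-93229619), known as egasyn, holds beta-glucuronidase in the endoplasmic reticulum. It ranged from 82.1 to 128 CPM and from 97.9 to 195 CPM, and its log2 fold change was 0.43 (95% interval -0.06 to 0.93). The gene of beta-glucuronidase, Gusb, was at 39.6 ± 5.01 and 35.7 ± 8.45 CPM (SD, n = 4 each), with a log2 fold change of -0.15 and an edgeR adjusted p of 0.636.

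Ces2e (ENSMUSG00000031886, chr8:104926260-104934672), of the same family as Ces2a, ranged from 126 to 170 CPM in AAV8-GFP mice and from 147 to 198 CPM in AAV8-AGXT mice, and its log2 fold change was 0.26 (95% interval -0.04 to 0.57). Ces1g (ENSMUSG00000057074, chr8:93302369-93337308), a triacylglycerol hydrolase that limits lipid accumulation in the liver, had the smallest difference. It was at 72.3, 76.7, 126 and 102 CPM in AAV8-GFP mice 303, 311, 314 and 315 and at 98.1, 121, 110 and 85.1 CPM in AAV8-AGXT mice 308, 309, 316 and 319. The mice of the groups were interleaved. The log2 fold change was 0.14 (95% interval -0.28 to 0.55), and the interval leaves room for changes in either direction. The intervals of these 4 members include 0 but have upper ends of 0.55 (Ces1g) to 0.93 (Ces1e), so the data do not show that their levels were equal.

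**Figure D3:**
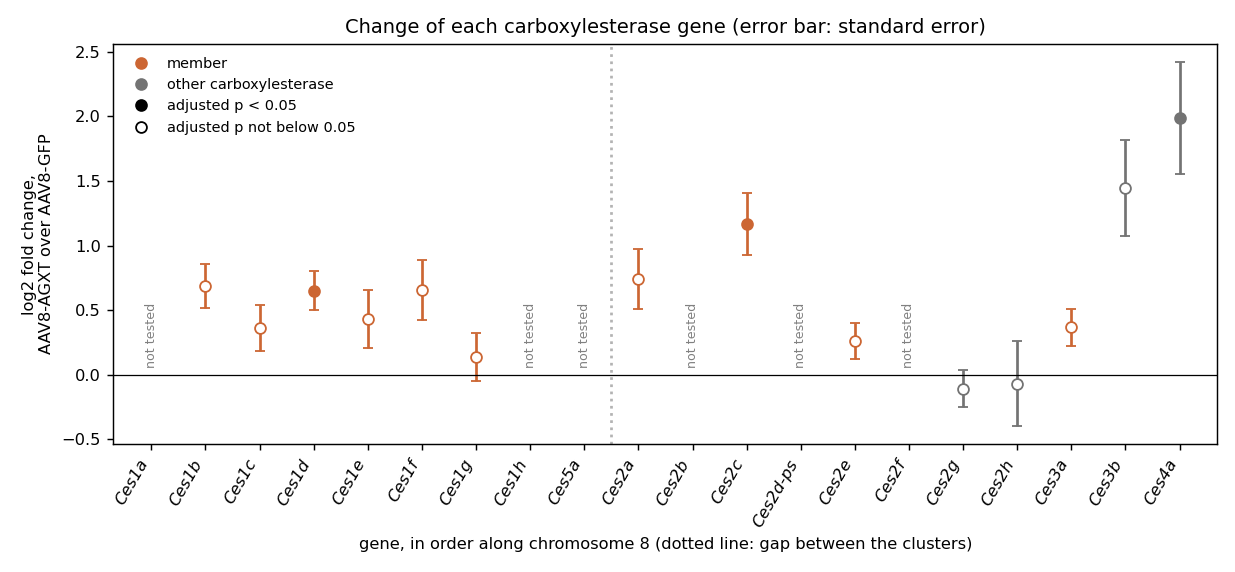
Log2 fold change of AAV8-AGXT over AAV8-GFP (vertical axis) for each carboxylesterase gene in its order along chromosome 8 (horizontal axis, dotted line between the gene clusters). Points are edgeR estimates with SE, members in orange and other carboxylesterases in grey, filled where the adjusted p was under 0.05, and genes too low to be tested are named as such. The members lie between 0.14 and 1.17, with Ces1d, Ces2c and the non-member Ces4a filled, and Ces1g falls to -0.09 under total-count scaling.

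All members were measured in the same 8 libraries, and some mice stood high or low for most of them. AAV8-AGXT mouse 308 was the highest of its group for 9 of 10 members, or for 6 of 10 when CPM were computed from total counts without the scaling factors. Mouse 316 was the lowest of its group for 6, but for 2 by total-count CPM, where mouse 319 was the lowest for 4. Among the AAV8-GFP mice, 315 was the highest for 7 members and 303 the lowest for 6. Mouse 308 also had the smallest share of pairs on genes, as given above, and the part of that in its levels was not tested. Without mouse 308 the median log2 fold change of the members was 0.38, with 0 of 10 past the threshold. In that fit 86 genes were higher and 91 lower of 15795 tested. Without mouse 315 the members' median was 0.62, with 4 past the threshold (Ces1b, Ces1f, Ces2a and Ces2c), beside 304 genes higher and 325 lower of 15439. Without each of the other 6 mice, 0 of 10 members passed, while over all tested genes the calls ranged from 2 higher and 0 lower (without mouse 311) to 379 higher and 264 lower (without mouse 309).

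The scaling of the libraries moved the size of the changes. Total-count scaling shifted the median log2 fold change of all tested genes to -0.22, and gave 144 genes higher and 857 lower in place of 374 and 290. The members' median was then 0.29, with only Ces2c past the threshold (adjusted p = 0.0459). Upper-quartile scaling gave 254 genes higher and 298 lower, a members' median of 0.47, and again only Ces2c past the threshold. Relative to the median of all tested genes, all 10 members were higher in every tool, scaling, filter and fit with 1 mouse left out. These settings reuse the same mice. The margin of Ces1g could be small, with a log2 fold change of 0.031 against a median of 0.017 without mouse 303. In the main fit 7974 of 15248 tested genes had a higher mean, and 38 of 46 tested genes of the other lists described below.

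**Figure D4:**
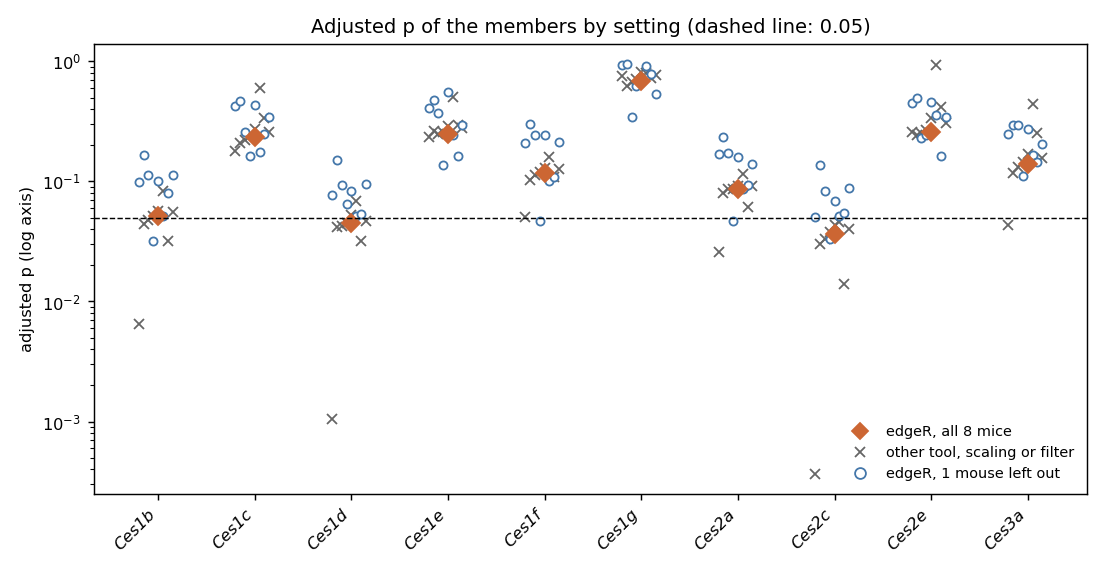
Adjusted p (vertical log axis, dashed line at 0.05) of each member (horizontal axis) in the edgeR fit of all 8 mice (diamonds), in the 8 other tools, scalings and filters (crosses) and in the 8 edgeR fits that left out 1 mouse (circles). Crosses of Ces2c all lie under the line. Ces1b, Ces1d, Ces1f, Ces2a, Ces2c and Ces3a have points on both sides of it, and the points of Ces1c, Ces1e, Ces1g and Ces2e all lie above it.

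Levels of different genes were compared per length, as CPM per kb of the longest coding transcript. In AAV8-GFP livers Ces3a (579 ± 71.6, SD, n = 4) and Ces1c (514 ± 104) were the most abundant members, and their ranges over the mice overlapped. They ranked 94th and 110th of 13221 tested coding genes. Ces1f (126 ± 38.5 CPM per kb) and Ces1d (105 ± 13.2) followed, again overlapping each other but under the range of Ces1c. Next came Ces2e (54.6 ± 7.51), Ces1e (47.2 ± 10.2), Ces2a (44.5 ± 12.6) and Ces1g (39.4 ± 10.4), each overlapping its neighbour in this order. Ces1b (11.8 ± 2.94) was below all of these and Ces2c (4.45 ± 1.69) below Ces1b, ranking 4032nd and 7072nd. The order was the same in AAV8-AGXT livers but for Ces2a, which stood 5th (74.4 ± 21.9 CPM per kb) ahead of Ces2e and Ces1e. With the length of all exons together, Ces1d came ahead of Ces1f in both groups, Ces1g ahead of Ces2a in AAV8-GFP mice, and Ces2e (65.5 CPM per kb) ahead of Ces2a (61.8) in AAV8-AGXT mice, so the place of Ces2a depended on the length used.

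**Figure D5:**
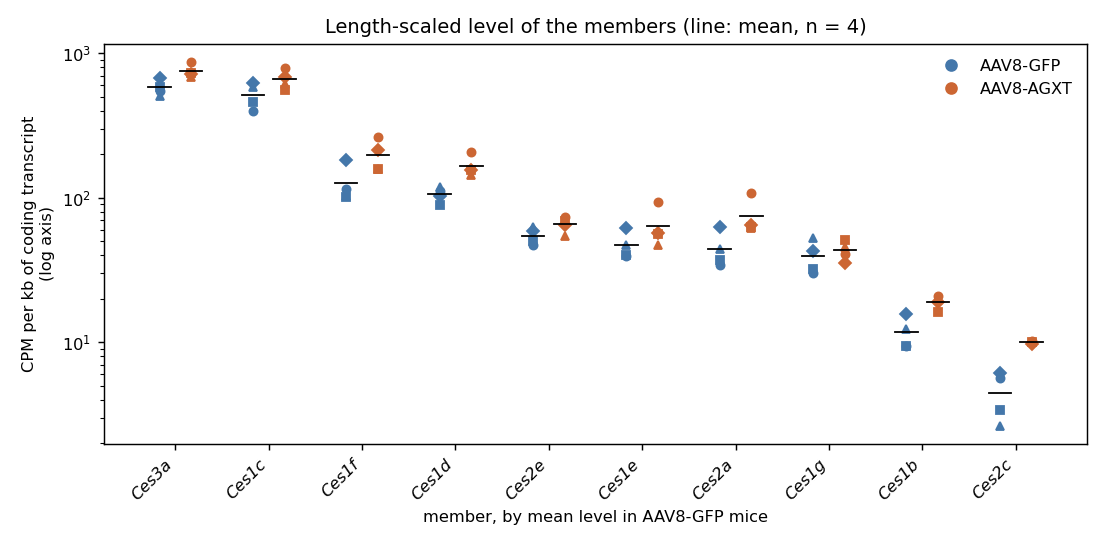
CPM per kb of the longest coding transcript (vertical log axis) for each member, ordered by its mean in AAV8-GFP mice (horizontal axis), with AAV8-GFP mice in blue, AAV8-AGXT mice in orange and a line at each group mean (n = 4). Symbols mark the same mice as in the plot of each member by mouse. Levels span 579 CPM per kb for Ces3a to 4.45 for Ces2c in AAV8-GFP mice, and Ces2c moves to 10 in AAV8-AGXT mice.

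Summed over the members, the signal came mostly from Ces3a and Ces1c, which made up 39.2 ± 4.11% and 30.8 ± 3.25% of the members' CPM in AAV8-GFP mice and 37.8 ± 1.67% and 29.7 ± 1.74% in AAV8-AGXT mice (SD, n = 4). Ces1d made up 7.05 ± 1.25% and 8.14 ± 0.354%, and Ces2c 0.289 ± 0.107% and 0.491 ± 0.0616%. The 6 members of family 1 together were at 1344, 1387, 1751 and 1949 CPM in AAV8-GFP mice 303, 311, 314 and 315 and at 2695, 1904, 1966 and 2204 CPM in AAV8-AGXT mice 308, 309, 316 and 319. These overlapped, since AAV8-GFP mouse 315 lay above AAV8-AGXT mouse 309. The 3 members of family 2 together were at 205, 215, 262 and 293 CPM in the AAV8-GFP mice and at 428, 330, 288 and 322 CPM in the AAV8-AGXT mice, in the same order of mice, again with an overlap. The log2 ratio of the group means was 0.45 for family 1, 0.49 for family 2 and 0.37 for Ces3a. With total-count scaling these ratios were 0.20, 0.25 and 0.13. With the non-member genes of each family added, the ratios in scaled CPM were 0.45, 0.43 and 0.53. Ces3a and Ces3b together were at 1129 to 1516 CPM in AAV8-GFP and 1637 to 2219 CPM in AAV8-AGXT mice. These did not overlap, while the groups overlapped for families 1 and 2. All 10 members together took 0.328% of the pairs counted on genes in AAV8-GFP mice and 0.372% in AAV8-AGXT mice.

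Of the other 10 carboxylesterase genes, 4 were high enough to be tested. Ces4a, a gene at the far end of the Ces2 to Ces4 cluster, was the only one to pass. It was at 0.976, 1.13, 0.415 and 1.37 CPM in AAV8-GFP mice 303, 311, 314 and 315 and at 5.52, 5.41, 1.85 and 2.93 CPM in AAV8-AGXT mice 308, 309, 316 and 319, without overlap. Its log2 fold change was 1.99 (SE 0.43) with an edgeR adjusted p of 0.0403. Ces3b, the neighbour of Ces3a with which it shares 18.7% of its own windows, was at 134, 201, 94.2 and 136 CPM and at 322, 732, 241 and 247 CPM in the same order of mice. Mouse 309 was far above the rest, the groups did not overlap, and the log2 fold change of 1.45 (SE 0.37) had an edgeR adjusted p of 0.0595. Ces2g and Ces2h had log2 fold changes of -0.11 (adjusted p = 0.671) and -0.07 (adjusted p = 0.918) in edgeR. Ces1a, Ces1h, Ces2b, Ces2d-ps, Ces2f and Ces5a were too low to be tested, and Ces5a had 0 counts in every mouse.

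The lists of neighbouring functions were chosen for what their genes do in the liver. Over 5 lists with 52 genes besides the members, the other carboxylesterases included, 46 were tested and 8 were higher and 0 lower in AAV8-AGXT mice by edgeR (at an unadjusted p under 0.05, 23 higher and 2 lower). Of the 46 means 38 were higher and 8 lower. The groups did not overlap for 18 genes that were higher and 1 that was lower. By DESeq2 20 were higher and 2 lower of 48, and by limma-voom 10 and 0 of 46. Over all tested genes the shares in either direction were 4.35% by edgeR, 12.9% by DESeq2 and 4.47% by limma-voom. They were 26.2% at the unadjusted edgeR p and 16.6% for groups without overlap. With 1 mouse left out, 0 to 5 genes of these lists were higher by edgeR, and there were 0 without mouse 311, 314 or 319.

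Among the 10 genes listed for lipid hydrolysis and its control, 3 rose and the median log2 fold change was 0.28. These were Pnpla2, adipose triglyceride lipase (0.65, adjusted p = 0.0484), Lipe, hormone-sensitive lipase (0.75, adjusted p = 0.041), and Lipg, endothelial lipase (1.47, adjusted p = 0.0498). Lpl, lipoprotein lipase, had a log2 fold change of -0.98 with an adjusted p of 0.0756, and Aadac, an arylacetamide deacetylase of the same compartment as the carboxylesterases, had 0.36 with an adjusted p of 0.238. Of 9 other ester hydrolases 1 rose, Afmid, which acts on formylkynurenine in tryptophan breakdown, from 9.71 ± 2.15 to 20.2 ± 1.79 CPM (means ± SD of 4 mice each), with a log2 fold change of 1.06 and an adjusted p of 0.0246, and the median of the 9 was 0.29. Pon1, a paraoxonase of plasma lipoproteins, was at 0.68 with an adjusted p of 0.0502. Exons of Afmid overlap Gm20708 on the same strand and Tk1 on the opposite strand, and those of Lipe overlap 4732471J01Rik on the opposite strand.

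In the list of VLDL assembly 1 of 10 genes rose, Mttp, which loads lipid onto apolipoprotein B (0.58, adjusted p = 0.0495), and the median was 0.31. Apob had a log2 fold change of 0.37 (adjusted p = 0.154). Exons of Mttp overlap Trmt10a and Gm43691 on the opposite strand. Of 13 transcription factors of liver metabolism 2 rose, Ppara, a fatty acid receptor that drives fatty acid oxidation (0.89, adjusted p = 0.0376), and Cebpa, a factor of hepatocyte identity (0.50, adjusted p = 0.0429), with a median of 0.39. Nr1i2 and Nr1i3, the receptors of foreign compounds known as PXR and CAR, had log2 fold changes of 0.11 (adjusted p = 0.689) and 1.43 (adjusted p = 0.0599). Exons of Nr1i3 overlap Tomm40l and those of Cebpa overlap Gm45091, both on the opposite strand. All of these values are from edgeR with adjustment over all tested genes. The medians of the lists lay below the members' median of 0.54 except for the 4 tested other carboxylesterases (0.69). Among the cell type markers described next, those of pericentral (1.05) and periportal hepatocytes (0.55) had medians above 0.54, and the other tested sets lay below.

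Markers of cell types and of zones of the liver lobule were read beside the members, with edgeR calls over all tested genes. Of all tested genes, 4.35% passed by edgeR, 12.9% by DESeq2 and 26.2% at an unadjusted edgeR p under 0.05, in either direction. Of 8 markers of pericentral hepatocytes, 3 rose (Oat, Cyp2e1 and Slc1a2), or 6 by DESeq2, with a median log2 fold change of 1.05. Their sum was 8207 to 10040 CPM in AAV8-GFP and 16290 to 21140 CPM in AAV8-AGXT mice, without overlap. Periportal markers summed to 4017 to 6856 and 6283 to 7699 CPM, and 0 of 7 passed by edgeR or DESeq2 (2 at an unadjusted p under 0.05). All 7 periportal means were higher, with a median log2 fold change of 0.55. General hepatocyte markers, whose sums are given above, likewise passed in 0 of 5 by both tools (2 at an unadjusted p under 0.05), with all 5 means higher and a median of 0.34. Cholangiocyte markers summed to 225 to 673 and 74.1 to 272 CPM. Most of this sum was Spp1 in every mouse, at 201 to 612 CPM in AAV8-GFP and 60.3 to 239 CPM in AAV8-AGXT mice. All 5 means were lower, 0 passed by edgeR (5 at an unadjusted p under 0.05), and 4 passed by DESeq2. Macrophage markers summed to 384 to 691 and 185 to 511 CPM, with 0 of 6 past the threshold by edgeR (2 lower at an unadjusted p under 0.05, and 2 by DESeq2). The macrophage means were split, with 3 higher (Adgre1, Clec4f and Vsig4) and 3 lower (Cd68, Trem2 and Lyz2). Stellate cell and fibroblast markers summed to 328 to 516 and 182 to 399 CPM, with 1 of 6 lower by edgeR (Acta2) and 2 by DESeq2. Endothelial markers summed to 110 to 164 and 113 to 215 CPM, with 0 of 5 passing by edgeR, DESeq2 or the unadjusted p. T and B cell markers summed to 6.73 to 11.7 and 3.25 to 6.93 CPM, with 0 of 5 passing by edgeR and 1 lower by DESeq2 and by the unadjusted p. Of their means 2 were higher and 3 lower. The part of these differences in the members' levels was not tested. Of tissues that could be carried along, markers of exocrine pancreas, adipocytes and kidney tubule summed to under 0.5 CPM in every mouse, with Cpa1, Lep and Kap at 0. The intestinal sum, 220 to 247 and 236 to 410 CPM, was nearly all Fabp2, and Cdx2 was at 0.

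The genes with profiles most like the members past the threshold were found by the root-mean-square difference of log2 CPM, each gene centred on its mean over the 8 mice. Among the 3 nearest to Ces1d was Acadm, the medium-chain acyl-CoA dehydrogenase (0.084), where Ces1d itself varied by 0.37 on this measure. Nearest to Ces2c were Ppargc1b (0.176), Gm47431 (0.229) and Fam228b (0.251), where Ces2c varied by 0.715. Gm47431 and Fam228b were below 2 CPM in both group means, and exons of Fam228b overlap those of Pfn4. These are descriptions over 8 mice that share the treatment difference.

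Promoters from 250 bases before to 50 bases after the start site were found in RefSeq (GRCm38.p6) for 7 of the 10 members, and not for Ces1d, Ces1f and Ces3a. They were searched on both strands for AGGTCA, the half-site that many nuclear receptors bind, and for the TATA box letters TATAAA. The half-site occurred in 1 of the 7 members, Ces2a, starting 226 bases before the start site, and in 16.3% of all 32851 promoters. The TATA letters occurred in 1 of the 7, Ces1g, on the reverse strand from 26 bases before the start site, and in 13.6% of all promoters. The Ces2a promoter is shown with the half-site in capitals, beside that of Ces2c, the family member with the largest rise, in which neither motif was found.
Ces2a promoter (GRCm38.p6, chr8:104733753-104734052, plus strand): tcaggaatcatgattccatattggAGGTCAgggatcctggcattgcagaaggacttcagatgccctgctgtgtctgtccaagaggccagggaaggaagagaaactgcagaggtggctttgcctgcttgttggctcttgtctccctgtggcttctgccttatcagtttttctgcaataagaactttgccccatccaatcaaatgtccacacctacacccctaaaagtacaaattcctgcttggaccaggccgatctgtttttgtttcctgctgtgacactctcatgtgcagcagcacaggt
Ces2c promoter (GRCm38.p6, chr8:104846818-104847117, plus strand): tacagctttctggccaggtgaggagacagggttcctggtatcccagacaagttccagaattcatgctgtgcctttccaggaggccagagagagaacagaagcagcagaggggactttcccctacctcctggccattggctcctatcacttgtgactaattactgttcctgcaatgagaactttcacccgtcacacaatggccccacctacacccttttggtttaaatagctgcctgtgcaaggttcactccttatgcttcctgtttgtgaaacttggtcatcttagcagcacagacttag
A match describes letters in this window, and neither promoter was measured in these libraries.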

How the data were processed

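Livers of 8 mice were compared by the treatment in the sample labels, 4 AAV8-GFP against 4 AAV8-AGXT, and no mouse was left out of the main fit. The authors trimmed paired-end reads of a stranded mRNA kit (76 bases, the first 9 cycles removed) with Trimmomatic 0.35, aligned them to GRCm38 with HISAT2 2.1.0.13 and deposited raw counts per Ensembl gene from HTSeq-counts 0.6.0. The strand option and the setting for pairs aligned at several places are not given in the sources used here. Genes were matched to GENCODE M21 (52489 of 52636). In R 4.3.3, edgeR 4.0.16 was run on the counts as deposited after filterByExpr, using TMM factors and the quasi-likelihood test. P-values of the 15248 genes kept were adjusted by the Benjamini-Hochberg method, with a threshold of 0.05. It was tested on simulated counts first. CPM carry the TMM factors, and their logarithms were taken to base 2 with 2 as prior count. Intervals are 95% from the fit. The alternatives were DESeq2 1.42.0, limma-voom (limma 3.58.1), robust estimation, 3 other scalings, 2 other filters and each mouse left out. Coding sequences were aligned with MAFFT 7.526.

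The members were given by name, and every gene of the lists could be named, along with the 3 genes most like each member past the threshold. Some of the latter are not reported here. Members and lists were chosen with earlier results of these data known. The labels do not describe cages or litters, so p-values measure the spread between these mice.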

Additional observations from a re-analysis of the deposited data

Results flagged for a closer look

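In 7 of 114 groups of 4 mice (the members, the genes of the other lists, and the 2 groups of each), 1 mouse lay far from the other 3, by a gap to its nearest neighbour of more than 0.829 of the whole range. Chance alone flags about 1 in 20 groups. Among the members, Ces1f was at 351.8 CPM in AAV8-GFP mouse 315, where the next mouse was at 220.7 CPM. Ces2a was at 210.2 CPM in AAV8-AGXT mouse 308, where the next was at 127.9 CPM. Among the other carboxylesterases, Ces3b was at 731.9 CPM in AAV8-AGXT mouse 309, where the next was at 321.9 CPM, and Ces2h was at 1.071 CPM in AAV8-GFP mouse 311, where the next was at 0.9371 CPM. Among the other lists, the hepatic lipase gene Lipc was at 162.6 CPM in AAV8-AGXT mouse 308 (next 134.2 CPM). Aadac was at 316.8 CPM in AAV8-GFP mouse 315 (next 219.7 CPM), the same mouse as for Ces1f. The liver factor gene Foxa2 was at 32.57 CPM in AAV8-GFP mouse 314 (next 22.25 CPM).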

How the results depend on the processing

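Of the members past the threshold, 2 by edgeR, there were 5 by DESeq2, 1 with upper-quartile scaling, 1 with total counts without a composition factor, and 0 to 4 with 1 mouse left out (4 without mouse 315, 0 without any other). Over all tested genes, DESeq2 gave 1068 higher and 1033 lower, total counts 144 and 857, and the fits with 1 mouse left out 2 to 379 higher and 0 to 325 lower. Of the other listed genes, 8 by edgeR, DESeq2 gave 20, DESeq2's size factors 5, upper-quartile scaling 4, total counts 3, no filter 13, at least 10 counts in every mouse 4, and the fits with 1 mouse left out 0 to 5. Listed genes lower, 0 by edgeR, were 2 by DESeq2, 1 with total counts and 1 without the filter. Total counts turned Ces1g to a log2 fold change of -0.086 and took the log2 ratio of the summed family 1 from 0.448 to 0.204, that of family 2 from 0.491 to 0.247 and that of Ces3a from 0.37 to 0.129, with the median of all genes at -0.22. The cause of these shifts was not tested. Every other member kept its direction in every setting run. No paired analysis was possible because no animal number occurs in both groups. Ces2c had the lowest counts of the members, 113 to 405 per mouse.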
